A study of Mus musculus with 41 samples.

Results

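The H3K4me2 regions described here carry H3K4me1 and RNA polymerase II (Pol II) at rest in cultured mouse cortical neurons. They were chosen from the called H3K4me2 regions of LSD1n WT neurons without KCl. A region on chromosomes 1 to 19 (build mm9) was kept when it overlapped, by at least 1 bp, a Pol II site in both Pol II lists at 0 h and an H3K4me1 region of LSD1n WT neurons at 0 h. The rule kept 4428 of 16358 regions, or 27.1%, which are called members from here on.

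Methylation of histone H3 at lysine 4 comes in degrees. The trimethylated form marks active gene starts, the monomethylated form (H3K4me1) marks enhancers and the flanks of gene starts, and the dimethylated form (H3K4me2) is found at both. Pol II transcribes messenger RNA and gathers just downstream of active starts. LSD1 (KDM1A) is a demethylase that removes H3K4me1 and H3K4me2. Neurons also make LSD1n, a splice form with a microexon, beside the common form, LSD1c. LSD1n has been tied in mouse neurons to demethylation of H4K20me1, a mark spread over transcribed gene bodies, as is H3K36me3.

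The study asked where LSD1 binds and how histone marks differ when LSD1n is deleted. The primary cortical neurons were kept 10 days in vitro and given 55 mM KCl, which depolarizes them, for 1 h or 0 h. Chromatin immunoprecipitation with sequencing gave 27 lists of called peaks: 15 of histone marks and 12 of Pol II, LSD1 and Flag-tagged LSD1. The groups used were LSD1n KO and LSD1n WT neurons (H3K4me1, H3K36me3, H4K20me1 and Pol II at 1 h and 0 h, with H3K4me2 in LSD1n WT alone), R26/LSD1n and R26/LSD1c neurons (Flag antibody at 1 h and 0 h) and wild type neurons (LSD1 antibody at 1 h and 0 h). The LSD1 antibody was also used on LSD1n KO neurons, with no KCl time in the labels, and on LSD1n WT neurons at 0 h. By its name, the LSD1n KO lacks the neuronal form and may still make LSD1c, which an antibody to LSD1 can also detect. The labels do not say which promoter drives the R26 transgenes, nor whether libraries came from separate cultures.

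All groups but 1 hold a single library, and differences between groups therefore carry no test. The share of regions that overlap a peak of a list is called their called share. Bracketed ranges are exact 95% Clopper-Pearson intervals and cover counting error only. Libraries held between 6990017 and 34859557 tags. The file names of the Pol II lists give the genotype opposite to the labels, and the genotype of each Pol II list is therefore uncertain. The rule takes both 0 h lists and does not depend on it.

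Members were compared with the other classes the same lists make. These are 3800 H3K4me2 regions with both Pol II lists and no H3K4me1, 3674 with H3K4me1 and no Pol II, and 2981 with neither. The other 1475 regions had Pol II in 1 list only. Members were wide, with a median of 1967 bp, against 1481 bp with Pol II alone, 655 bp with H3K4me1 alone, 629 bp with neither and 1185 bp over all regions. They made up 41.4% of the length covered by H3K4me2. Since a wide region meets an overlap more easily, shares were also read in 4 equal parts of all regions by width, bounded at 641, 1185 and 1909 bp. The narrowest part held 110 members and the widest 2325.

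Over all regions, the lists of the rule were called in 54.5% for H3K4me1 and in 55.7% and 53.9% for Pol II labelled LSD1n KO and LSD1n WT. Members are called in all of them by choice, and some lie near the edge of the rule. In 435 members (9.82%) the smallest of the 3 overlaps was under 100 bp, and 387 other regions missed the rule by a gap under 100 bp. An overlap of 1 to 10 bp was found in 46 members and a gap of 0 to 10 bp in 49 other regions. H3K4me1 of LSD1n WT neurons at 0 h covered 32.8% of the members' length, and 80.9% of members had their first listed Pol II sites within 100 bp of each other in both lists.

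The members' share of all H3K4me2 regions differed between chromosomes. It ran between 32.9% on chromosome 7 and 18.3% on chromosome 13. The median gap between neighbouring members was 126 kb, and 111 gaps were under 5 kb. On chromosome X, outside the rule, 4 of 164 H3K4me2 regions met its overlaps.

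Over the 23 lists outside the rule, a member overlapped a median of 11 lists (quartiles 9 and 13). The median was 9 lists with Pol II alone, 5 with H3K4me1 alone, 3 with neither and 7 over all regions. There were 140 members in 5 lists or fewer (3.16%, beside 34.6% of all regions and 10.2% with Pol II alone). There were 30 in all 23 (0.678%, beside 0.183% of all regions). The plot of called shares sets the members beside the other classes for every list.

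**Figure D1:**
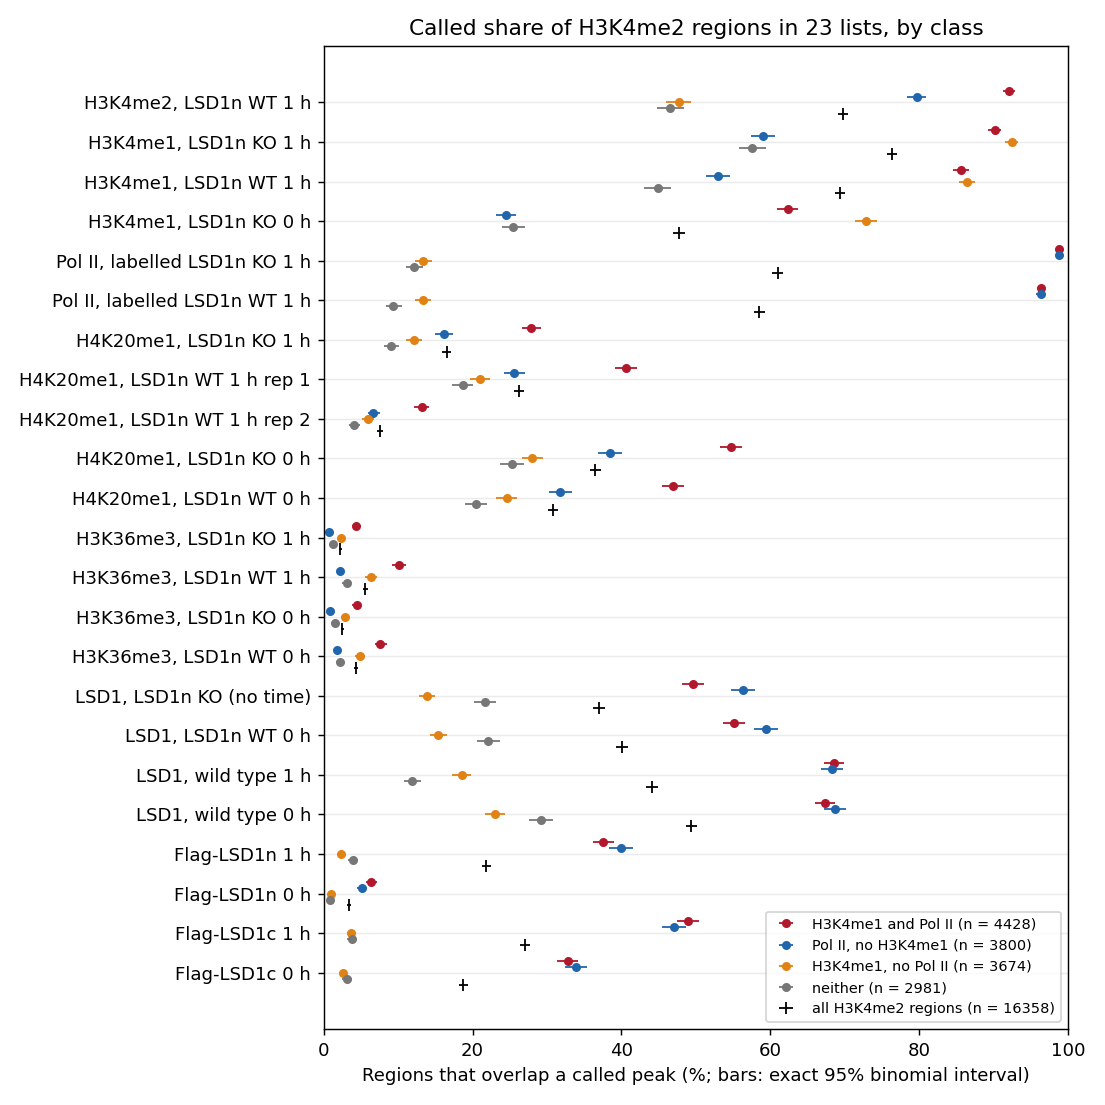
Called share (%) of H3K4me2 regions in the 23 lists outside the rule, with exact 95% binomial intervals, for members (red), the 3 other classes and all regions. Members follow the Pol II class in Pol II and LSD1 lists. Without regard to width, they lie nearest the H3K4me1 class in H3K4me1 lists and above the 3 other classes in H3K4me2, H4K20me1 and H3K36me3 lists. Within each width part members lie below the H3K4me1 class in H3K4me1 lists. The likeness in Pol II and H3K4me1 lists is favoured by the rule.

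The KCl time course of H3K4me2 was measured in LSD1n WT neurons. After 1 h of KCl 92.1% (91.2 to 92.9) of members were called, beside 69.8% of all 16358 H3K4me2 regions. The share was 79.7% with Pol II alone, 47.7% with H3K4me1 alone and 46.6% with neither. Members thus stayed on the H3K4me2 list more often than each other class, and in each width part more often than regions with Pol II alone. Within the 4 width parts, narrow to wide, members were called at 63.6%, 83.1%, 90.5% and 96.3%, and regions with Pol II alone at 55.0%, 69.9%, 81.8% and 92.9%.

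Where a member was called at both times, its region was narrower at 1 h, with a median width of 1449 bp after KCl, against 2019 bp at 0 h. The median change was -432 bp, and 74.3% of these 4077 members were narrower at 1 h. In regions with Pol II alone the median change was -360 bp with 69.4% narrower, and over all regions called at both times it was -213 bp with 63.6% narrower. The 0 h width belongs to the list the members came from, and the 1 h library is smaller, with 6990017 tags against 9418008 at 0 h. The part of depth and of selection in the narrowing was not tested. Over the Pol II site itself, H3K4me2 was called in 65.7% of members at 1 h and in 97.7% at 0 h. With Pol II alone these shares were 52.4% and 94.7%. The rule asks that the 0 h region overlap Pol II, which favours the 0 h values. The contrast is therefore not read as a loss over the site.

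The 351 members without H3K4me2 at 1 h (7.93%, beside 30.2% of all regions) were narrower, with a median of 1455 bp. Both Pol II lists at 1 h still held 94.0% of them. H3K4me1 of LSD1n KO at 0 h was called in 43.6% of them, against 63.9% of the members that kept H3K4me2. H4K20me1 of LSD1n KO at 1 h was called in 15.1% of them against 29.0%. Flag-LSD1n at 1 h showed little contrast, at 41.3% against 37.3%. Shares of these marks also differed by width among all members. H4K20me1 of LSD1n KO at 1 h was called in 13.7% of members in the part between 1185 and 1909 bp, and in 41.7% in the widest. For H3K4me1 of LSD1n KO at 0 h these shares were 55.5% and 70.8%. The part of width in the contrasts of H4K20me1 and H3K4me1 was not tested. The same split is not given here for other classes. The widest of the 351 was found on chromosome 19 (45855254 to 45858844), measured 3.59 kb and overlapped 14 of the 23 lists. The next were a region of 3.33 kb on chromosome 8 (4323412 to 4326736), in 13 lists, and one of 3.13 kb on chromosome 3 (95462188 to 95465318), in 15 lists. H4K20me1 of LSD1n KO at 0 h covered 62.3%, 57.3% and 85.7% of these regions.

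Pol II stayed in place after KCl. Both 1 h lists were called in 95.96% (95.3 to 96.5) of members, beside 55.3% of all regions. With Pol II alone the share was 95.9% (95.2 to 96.5). Taken singly, the 1 h lists were called in 98.8% (labelled LSD1n KO) and 96.4% (labelled LSD1n WT) of members, beside 61.0% and 58.5% of all regions. In regions with no Pol II at 0 h, both 1 h lists were called in 6.75% with H3K4me1 and 5.50% without. Only 34 members (0.768%, beside 35.8% of all regions) had no Pol II in either list at 1 h. The nearest 1 h site lay a median of 24 bp (labelled LSD1n KO) and 34 bp (labelled LSD1n WT) from the 0 h site. These shares start from 0 h Pol II by rule, so they describe persistence, not gain.

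H3K4me1 was measured in 3 lists outside the rule. At 1 h it was called in 90.1% (89.2 to 91.0) of members in LSD1n KO and 85.6% (84.6 to 86.7) in LSD1n WT, beside 76.3% and 69.4% of all regions. At 0 h in LSD1n KO it was called in 62.3% (60.9 to 63.8) of members, beside 47.7% of all regions. All 3 lists were called in 56.2% of members and none of them in 3.52%, beside 40.1% and 14.0% of all regions. Regions with H3K4me1 alone, though narrower, had higher shares in all 3 lists. These were 92.4% in LSD1n KO at 1 h, 86.4% in LSD1n WT at 1 h and 72.8% in LSD1n KO at 0 h. Their shares were also above those of members in every width part. In LSD1n KO at 0 h, narrow to wide, they were called at 69.7%, 74.7%, 74.1% and 82.4%. Members were called there at 54.5%, 45.4%, 55.5% and 70.8%. The rule takes H3K4me1 of LSD1n WT at 0 h, which favours higher shares in members than over all regions. The shares therefore describe how far the lists share regions, not a separate trait.

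The member share of LSD1n KO at 1 h was above that of LSD1n WT at 1 h by 4.47 percentage points. The KO library had 34859557 tags and 62945 regions, and the WT library 23440511 tags and 44793 regions. In members, 444 were called in KO and not in WT, against 246 in WT and not in KO (10.03% against 5.56%, beside 15.3% and 8.33% of all regions). The part of depth in this was not tested. Between 1 h and 0 h in LSD1n KO the share differed by 27.8 points, with 34859557 tags at 1 h and 22970480 at 0 h. No such contrast can be read for 0 h between genotypes, since the LSD1n WT list at 0 h chose the members.

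H3K4me1 lay beside the Pol II site more than over it. Averaged over both sides, the share of members covered was highest at 1000 bp in LSD1n KO at 1 h, where it was 48.0%, against 32.1% at the site. In LSD1n WT at 1 h it reached 41.8% at 900 bp, against 31.0% at the site. In LSD1n KO at 0 h it reached 23.96% at 1100 bp, against 12.6% at the site. The list that chose the members, LSD1n WT at 0 h, had the same shape, with 35.3% at 900 bp and 22.1% at the site. With Pol II alone, LSD1n KO at 1 h also had its highest value off the site, 30.6% at 1100 bp against 16.8%.

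**Figure D2:**
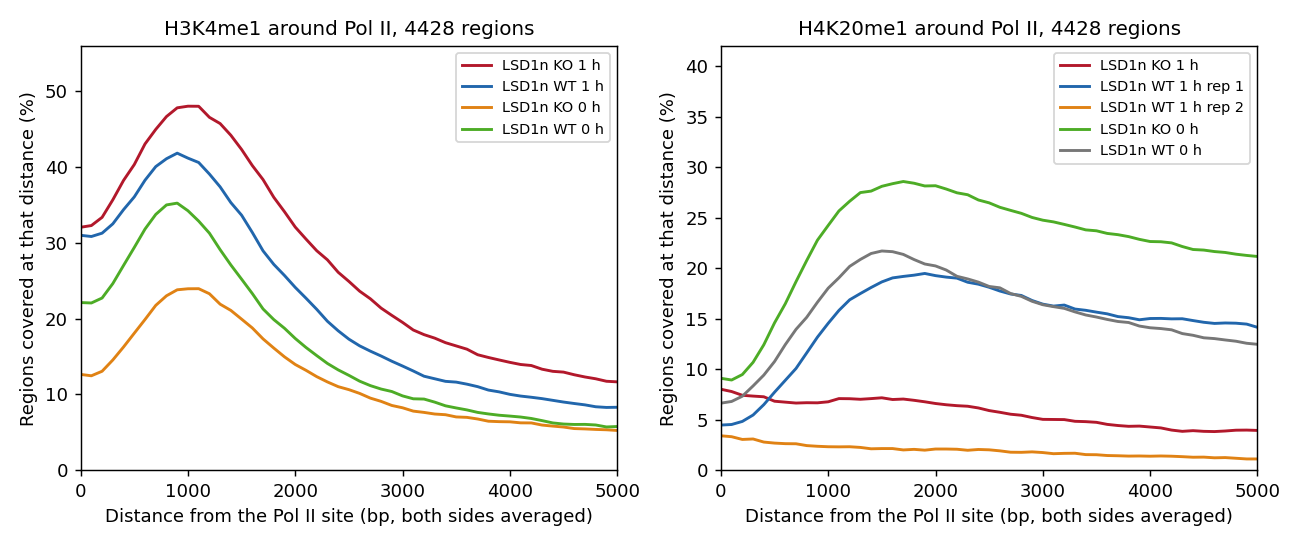
Share of the 4428 members (%) in which H3K4me1 (left) or H4K20me1 (right) is called at each distance (bp) from the Pol II site, averaged over both sides, with 1 line per library. H3K4me1 is highest 900 to 1100 bp from the site in all 4 libraries. H4K20me1 is highest at 1500 to 1900 bp in 3 libraries. In LSD1n KO 1 h and LSD1n WT 1 h replicate 2 this average is highest at the site. Within 2 kb the mark in these 2 libraries is more often one-sided than over the site.

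Within 2 kb of the Pol II site, H3K4me1 was placed in different ways. At 1 h in LSD1n KO it overlapped the site in 37.3% of members, stood on both sides in 34.7%, on one side in 24.1%, and was not called in 3.82%. At 1 h in LSD1n WT these shares were 35.4%, 28.1%, 29.4% and 7.02%. At 0 h in LSD1n KO they were 15.4%, 16.4%, 41.4% and 26.9%. One-sided placing was thus the commonest form at 0 h and the rarest called form at 1 h in LSD1n KO. The side was often the same in both genotypes. Where LSD1n KO and LSD1n WT at 1 h were each one-sided, in 527 members, the side agreed in 85.8% (82.5 to 88.6). With Pol II alone it agreed in 86.3% of 754 regions.

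**Figure D3:**
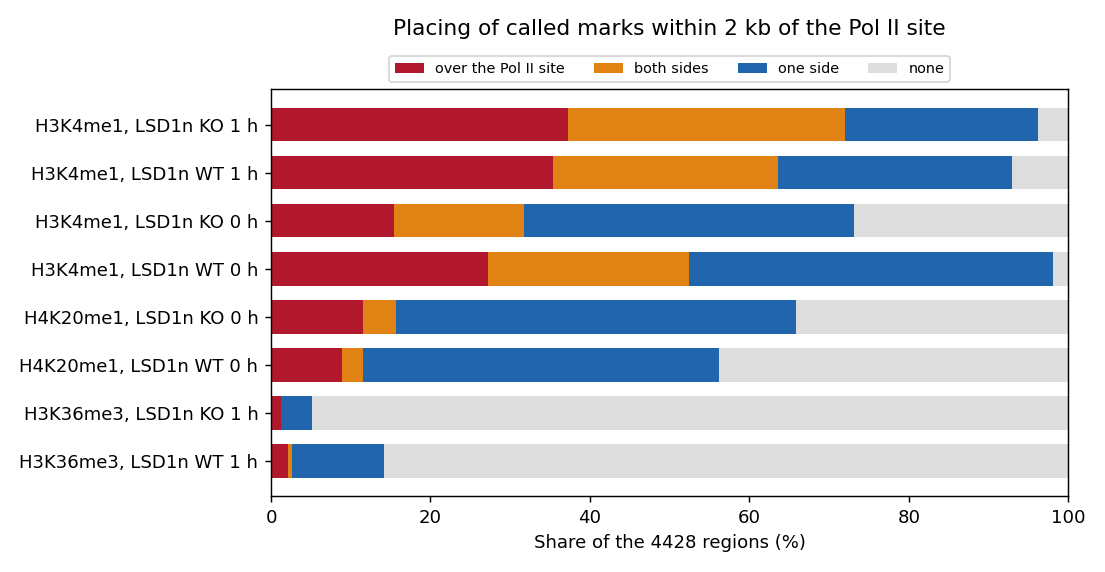
Share of the 4428 members (%) in which a mark is called over the Pol II site, on both sides, on one side or not at all within 2 kb of it. Where called, H4K20me1 at 0 h and H3K36me3 are mostly on one side, while H3K4me1 is spread over all 3 placings.

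The members with H3K4me1 over the Pol II site in the list that chose them numbered 1205. The other 3223 did not have it over the site, and 83 of these had none within 2 kb. Those with H3K4me1 over the site were narrower, with a median of 1541 bp against 2127 bp. They had fewer H4K20me1 calls, 39.4% against 60.5% in LSD1n KO at 0 h and 32.3% against 52.5% in LSD1n WT at 0 h. They also had fewer sites of Flag-LSD1n at 1 h, 29.0% against 40.8%, and of Flag-LSD1c at 1 h, 36.4% against 53.6%. The part of the difference in width in these shares was not tested.

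Without regard to width, H4K20me1 was called in a larger share of members than of the 3 other classes. At 0 h the share was 54.8% (53.3 to 56.2) in LSD1n KO and 47.0% (45.5 to 48.5) in LSD1n WT, beside 36.5% and 30.8% of all regions. With Pol II alone it was 38.4% in LSD1n KO and 31.8% in LSD1n WT. Among regions of similar width the classes lay in another order. In LSD1n KO at 0 h, members of the 4 width parts, narrow to wide, were called at 28.2%, 14.3%, 35.7% and 76.9%, and regions with Pol II alone at 10.9%, 17.0%, 33.5% and 72.1%. Members and regions with Pol II alone were thus within 5 points of each other in the 3 wider parts. They were farther apart in the narrowest part, which held only 110 members. Regions with H3K4me1 alone were called at 21.5%, 24.3%, 42.1% and 60.9%, and regions with neither at 21.3%, 24.8%, 39.3% and 52.4%. Members were below both of these classes in the 2 middle parts and above them in the narrowest and the widest. Over all regions the shares were 19.8%, 19.8%, 34.3% and 72.1%.

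At 0 h more members had H4K20me1 in LSD1n KO alone than in LSD1n WT alone. There were 579 in KO and not WT (13.1%) and 234 in WT and not KO (5.28%), beside 10.3% and 4.57% of all regions. Both lists held 41.7% of members, beside 26.2% of all regions. With Pol II alone the shares in KO alone and WT alone were 12.9% and 6.29%. The KO list is longer in general, with 36291 regions from 21256742 tags, against 25429 regions from 18494273 tags in LSD1n WT, and the part of this was not tested. Among members with a Flag-LSD1n site at 1 h the called share was 61.7% in LSD1n KO and 55.6% in LSD1n WT. Among members without it the share was 50.6% in LSD1n KO and 41.8% in LSD1n WT. The share was therefore higher in LSD1n KO both with and without a Flag-LSD1n site, by 6.07 and 8.83 percentage points. In regions with Pol II alone these differences were 7.51 and 6.09 points, and over all regions 6.71 and 5.40, so the order seen in members is not seen there.

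All 5 H4K20me1 lists were called in 418 members (9.44%, beside 4.93% of all regions) and none of them in 1574 (35.5%, beside 55.1%). Members that overlapped an H4K20me1 region wider than 10 kb made up 12.6% in LSD1n KO at 0 h and 4.90% in LSD1n WT at 0 h, beside 9.18% and 3.80% of all regions.

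At 1 h the H4K20me1 libraries did not rank by genotype. The share was 27.9% (26.6 to 29.2) in LSD1n KO, beside 16.5% of all regions. In LSD1n WT it was 40.6% (39.1 to 42.05) in replicate 1 and 13.2% (12.2 to 14.2) in replicate 2, beside 26.3% and 7.52% of all regions. The LSD1n WT mean was 26.9% ± 19.4 (SD, n = 2), so the KO value lies inside the WT spread. LSD1n KO and WT replicate 2 share a title prefix with each other and with both H3K4me2 libraries, and replicate 1 has a prefix of its own. Averaged over both sides, those 2 libraries alone had their highest coverage at the Pol II site itself. It was 8.02% of members in LSD1n KO and 3.41% in WT replicate 2. A one-sided mark is lowered by this average. Within 2 kb the mark was one-sided in 19.3% of members in LSD1n KO and over the site in 10.1%. In WT replicate 2 these shares were 8.63% and 4.16%. In the other 3 libraries the average was highest away from the site. It reached 28.6% at 1700 bp in LSD1n KO at 0 h, 21.7% at 1500 bp in LSD1n WT at 0 h and 19.5% at 1900 bp in WT replicate 1. The part of the shared prefix in this was not tested.

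H3K36me3 was rare in members, and without regard to width less so than in the 3 other classes. At 1 h it was called in 4.36% (3.78 to 5.002) of members in LSD1n KO and 10.1% (9.22 to 11.02) in LSD1n WT, beside 2.24% and 5.61% of all regions. At 0 h it was called in 4.43% (3.84 to 5.07) in LSD1n KO and 7.63% (6.87 to 8.45) in LSD1n WT, beside 2.51% and 4.33%. The KO lists held 3166 regions at 1 h and 3685 at 0 h, and the WT lists 17465 at 1 h and 11530 at 0 h. The members' lower share in LSD1n KO goes with these shorter lists, and its part was not tested. At 1 h 38 members were called in LSD1n KO and not LSD1n WT (0.858%, beside 0.514% of all regions) and 292 in LSD1n WT and not LSD1n KO (6.59%, beside 3.88%). At 0 h these counts were 55 (1.24%, beside 0.844%) and 197 (4.45%, beside 2.67%). All 4 lists were called in 94 members (2.12%, beside 0.984%). In any of the 4 lists H3K36me3 was called in 13.7% of members, 3.47% of regions with Pol II alone, 8.87% with H3K4me1 alone, 4.46% with neither and 7.93% of all regions.

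The 184 members called with all 8 targets hold H3K36me3 by definition, and without them its share was 7.21% in LSD1n WT at 1 h and 2.90% in LSD1n KO at 0 h. In LSD1n WT at 1 h, the share was higher in members than in regions with Pol II alone in every width part. Members were called at 20%, 4.18%, 4.09% and 14.8% from the narrowest to the widest part, and regions with Pol II alone at 2.37%, 0.529%, 1.05% and 5.06%. Regions with H3K4me1 alone were called at 3.60%, 5.41%, 11.5% and 18.6%, above members in the 3 wider parts, and regions with neither at 2.37%, 2.24%, 4.41% and 18.1%, above members in the 2 widest. Over the 500 bp around the centre of a region, the share was 3.77% in members and 4.68% with H3K4me1 alone. The 20% in the narrowest part stands for 22 of 110 members. Other short lists were called there at a like share, 20% for Flag-LSD1n at 0 h and 19.1% for H4K20me1 of WT replicate 2 at 1 h. Whether the same regions carry these calls was not tested, so the 20% is not read as particular to H3K36me3.

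Members with H3K36me3 had H4K20me1 more often than members without it. Of the 605 members with H3K36me3 in any list, 86.8% had H4K20me1 in LSD1n KO at 0 h and 76.9% in LSD1n WT at 0 h. Of the 3823 without H3K36me3 the shares were 49.7% in LSD1n KO and 42.2% in LSD1n WT. The members with H3K36me3 were wider, with a median of 2779 bp against 1893 bp. Over all regions, H4K20me1 of LSD1n KO at 0 h rose from 19.8% in the narrowest part to 72.1% in the widest. The part of width in the contrast was not tested. Members called with all 8 targets are among the 605 and hold both marks by definition. The same split is not given here for other classes, so the contrast is not shown to be particular to members. Wild type LSD1 at 0 h went the other way, at 59.2% with H3K36me3 and 68.6% without.

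The marks also stood on the same side of Pol II, in members and in regions with Pol II alone. H4K20me1 was one-sided within 2 kb in 50.1% of members in LSD1n KO at 0 h and 44.7% in LSD1n WT at 0 h. Where both libraries were one-sided, in 1460 members, the side agreed in 98.8% (98.1 to 99.3). H3K36me3 of LSD1n WT at 1 h was on the side of H4K20me1 in 93.9% (90.7 to 96.3) of 312 members for LSD1n KO at 0 h and in 93.1% (89.4 to 95.8) of 274 for LSD1n WT at 0 h. Even in the libraries with few H4K20me1 calls the side agreed, in 92.7% of 164 members for LSD1n KO at 1 h and 90.7% of 97 for WT replicate 2 at 1 h. For WT replicate 1 at 1 h it agreed in 92.4% of 277 members. In these 6 pairs of lists the side agreed in at least 90.7% of members. Other pairs of H3K36me3 and H4K20me1 lists were not compared. With Pol II alone, H4K20me1 was one-sided in 47.4% of regions in LSD1n KO and 41.3% in LSD1n WT at 0 h. Where both were one-sided there, the side agreed in 99.1% of 1163 regions. H3K36me3 of LSD1n WT at 1 h was on that side in 92.6% of 108 regions (LSD1n KO at 0 h) and 88.7% of 97 (LSD1n WT at 0 h). The shared side is thus not particular to members.

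One-sided H3K4me1 followed that orientation only in part. It stood on the side of H4K20me1 of LSD1n KO at 0 h in 58.7% (54.6 to 62.8) of 589 members for LSD1n KO at 1 h and in 60.5% (56.8 to 64.1) of 712 for LSD1n WT at 1 h. In regions with Pol II alone these shares were 66.5% (63.0 to 69.9) of 750 and 66.7% (63.4 to 69.9) of 833. Regions of 1 library share their source, so these intervals are no test of a difference between classes.

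**Figure D4:**
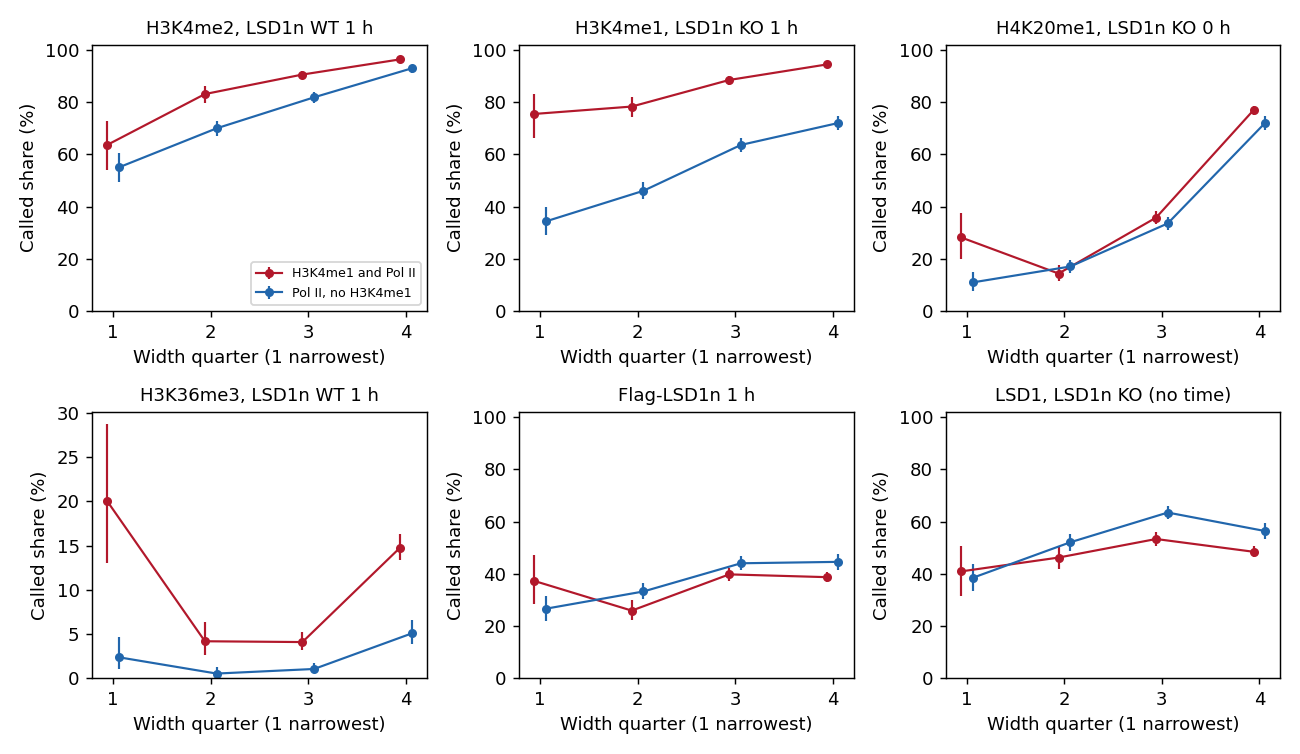
Called share (%) of members (red) and of regions with Pol II and no H3K4me1 (blue) in 4 equal parts of all H3K4me2 regions by width, with exact 95% binomial intervals, for 6 lists (the vertical axis of the H3K36me3 panel has a smaller range). Members lie above in every part for H3K4me2, H3K4me1 and H3K36me3, close to the other class in the 3 wider parts for H4K20me1, and below it in those parts for Flag-LSD1n and for LSD1 in LSD1n KO. The rule splits these classes by H3K4me1 of LSD1n WT at 0 h, which favours a higher H3K4me1 share in members.

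Nearly every member held an LSD1 site. At least 1 of the 8 LSD1 lists was called in 94.4% (93.7 to 95.1) of members, beside 72.0% of all regions, and all 8 in 72 members (1.63%, beside 0.746%). The share was 94.97% with Pol II alone, 41.3% with H3K4me1 alone and 44.1% with neither. Members and regions with Pol II alone thus lay close together, above both classes without Pol II.

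Any of the 4 LSD1 antibody lists was called in 89.8% of members, beside 68.9% of all regions, and all 4 in 28.5%, beside 17.4%. The LSD1 antibody in wild type neurons gave 68.6% (67.2 to 69.9) of members at 1 h and 67.3% (65.9 to 68.7) at 0 h, beside 44.1% and 49.4% of all regions. With neither Pol II nor H3K4me1 the share was 11.9% at 1 h and 29.2% at 0 h. Regions with Pol II alone had 68.3% at 1 h and 68.7% at 0 h. Both classes with Pol II in both lists were thus nearly level between the times, by 1.22 points in members. The share over all regions was lower at 1 h. The 1 h list held 18457 sites from 19266695 tags, and the 0 h list 22663 sites from 24377237 tags. The part of depth in these shares was not tested. Both times were called in 2241 members (50.6%, beside 30.7% of all regions), 1 h alone in 795 (18.0%, beside 13.4%) and 0 h alone in 741 (16.7%, beside 18.7%). In LSD1n KO, with no time given, the share was 49.6% (48.2 to 51.1), against 55.1% (53.6 to 56.6) in LSD1n WT at 0 h, beside 37.0% and 40.1% of all regions. Regions with Pol II alone had 56.4% in LSD1n KO and 59.4% in LSD1n WT. There were 512 members called in LSD1n KO and not LSD1n WT (11.6%, beside 9.73% of all regions) and 754 in LSD1n WT and not LSD1n KO (17.0%, beside 12.8%). The KO library had 31532169 tags and the WT library 17993780.

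The distance of the LSD1 site from Pol II differed between the times. In wild type neurons it lay a median of 157 bp from the Pol II site at 1 h and 348 bp at 0 h. Within 250 bp lay 72.8% of the called members at 1 h and 33.2% at 0 h. Of the 2241 members called at both times, the 1 h site was the nearer in 1702 (75.9%) and the 0 h site in 524 (23.4%), with a median distance of 158 bp for the 1 h site, against 350 bp for the 0 h site. Regions with Pol II alone had the same pattern, with the 1 h site nearer in 77.7%. The LSD1n KO library, at 372 bp, and LSD1n WT at 0 h, at 374 bp, were like the wild type library at 0 h. There is 1 library at 1 h, so a property of that library cannot be told apart from KCl. Both wild type libraries share a title prefix, which the Flag-LSD1n libraries and the H4K20me1 libraries at 0 h also carry.

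**Figure D5:**
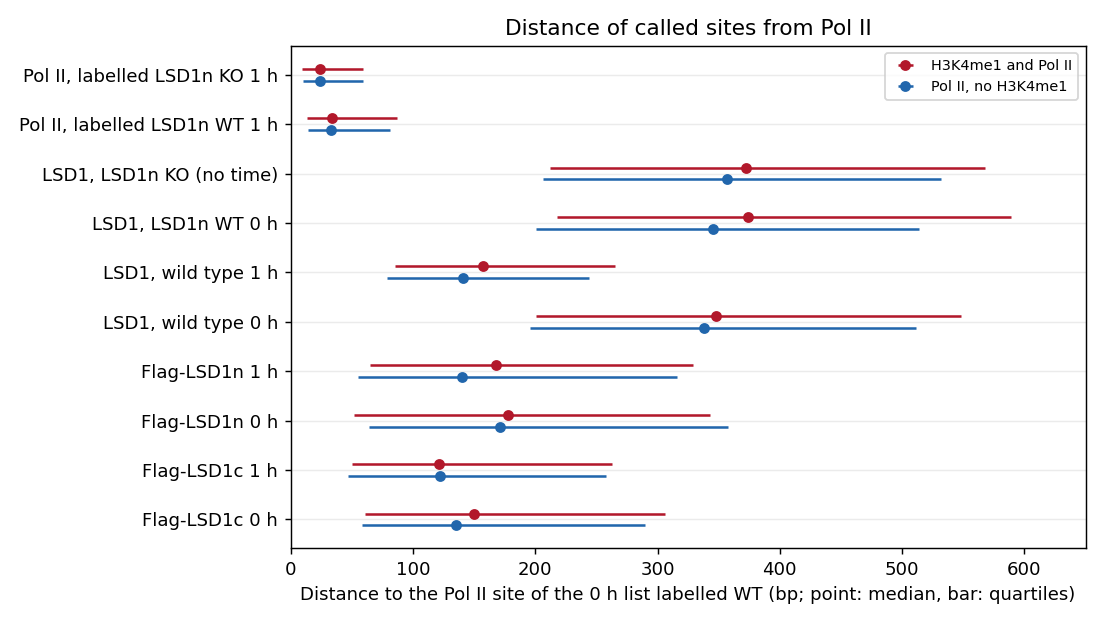
Distance (bp) of the nearest called site in a region from the Pol II site of the 0 h list labelled LSD1n WT, as median (point) and quartiles (bar), for members (red) and regions with Pol II and no H3K4me1 (blue). LSD1 in wild type neurons lies at 157 bp at 1 h and 348 bp at 0 h in members, while Flag lists lie between 121 and 178 bp at both times.

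Flag-LSD1n sites were more common in members after KCl. At 1 h 37.6% (36.1 to 39.0) of members were called, against 6.35% (5.65 to 7.10) at 0 h, beside 21.9% and 3.42% of all regions. The share was 5.92 times as high at 1 h. In proportion, the rise was no smaller over all regions and with Pol II alone, so it is not particular to members. In all, 1481 members had a site at 1 h and not 0 h (beside 19.7% of all regions), and 98 at 0 h and not 1 h (2.21%, beside 1.27%). The list was longer at 1 h, with 4438 sites against 940 at 0 h, from 26208203 tags at 1 h and 31804648 at 0 h. Members held 39.1% of the sites of the list at 1 h and 31.5% at 0 h. They held 41.9% and 38.3% of the Flag-LSD1c sites at these times. Of the Pol II sites at 1 h they held 29.0% (labelled LSD1n KO) and 32.0% (labelled LSD1n WT). The share of sites in all H3K4me2 regions is not given here. Flag-LSD1n was called in 2.31% of regions with H3K4me1 alone at 1 h and 1.01% at 0 h. With Pol II alone it was called in 39.95% and 5.13%. Flag-LSD1n at 1 h thus went with Pol II, and members were a little below regions with Pol II alone in the 3 wider parts, at 38.7% against 44.6% in the widest.

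Flag-LSD1c was present in members at both times. It was called in 48.9% (47.4 to 50.4) at 1 h and 32.8% (31.4 to 34.2) at 0 h, beside 27.0% and 18.8% of all regions. Its share at 1 h was 1.49 times that at 0 h, close to the proportion over all regions. Its list held 5480 sites at 1 h and 3922 at 0 h. Flag-LSD1n stood at 0.769 of the Flag-LSD1c share at 1 h and 0.194 of it at 0 h. Both forms were called at 1 h in 1058 members (23.9%, beside 13.0% of all regions), LSD1n alone in 606 (13.7%, beside 8.90%) and LSD1c alone in 1107 (25%, beside 14.0%). The Flag sites lay near Pol II, with medians for LSD1n of 168 bp after KCl, against 178 bp at 0 h, and for LSD1c of 121 bp after KCl, against 150 bp at 0 h. The Flag-LSD1c libraries carry another title prefix than Flag-LSD1n, and the part of this in the contrast of forms was not tested.

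Members with and without Flag-LSD1n at 1 h were of like width, with medians of 1976 and 1949 bp. The 1664 members with it had more H4K20me1 in each library, for instance 55.6% against 41.8% in LSD1n WT at 0 h and 32.3% against 25.2% in LSD1n KO at 1 h. They also had more wild type LSD1 at 1 h, 76.4% against 63.8%, and more Flag-LSD1c at 1 h, 63.6% against 40.1%. Their H3K4me1 was no higher, at 88.5% against 91.1% in LSD1n KO at 1 h, and their H3K4me2 at 1 h was 91.3% against 92.5%. Regions with Pol II alone showed the same contrast of H4K20me1 in LSD1n WT at 0 h, at 39.1% against 26.9%.

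The widest member lay on chromosome 3 (88002947 to 88027665), was 24.7 kb wide and was called in 15 of the 23 lists. Of the LSD1 lists it held Flag-LSD1c at 1 h alone. H4K20me1 covered 55.7% of it in LSD1n KO at 0 h and 36.6% in LSD1n WT at 0 h. The next without repeated calls in all lists lay on chromosome 13 (83852473 to 83868211, 15.7 kb) and was called in 10 lists. It held no LSD1 site of any kind, and H4K20me1 covered 3.18% of it in LSD1n KO at 0 h and none in LSD1n WT at 0 h. A second wide member without any LSD1 site lay on the same chromosome (84196052 to 84206850, 10.8 kb) and had no H4K20me1 in any library, while H3K4me1 at 1 h covered 53.1% of it in LSD1n KO and 63.3% in LSD1n WT. Another was on chromosome 4 (42959032 to 42967310, 8.28 kb), where H3K4me1 at 1 h covered 86.7% in LSD1n KO and 90.7% in LSD1n WT. These were among the 248 members without an LSD1 site in any list (5.60%, beside 28.0% of all regions).

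The other widest members lay on chromosome 5 (123580794 to 123596284, 15.5 kb), in 18 lists and without Flag sites, and on chromosome 7 (86644090 to 86658116, 14027 bp), in 16 lists. H4K20me1 covered 87.4% of the region on chromosome 7 in LSD1n KO at 0 h and 73.3% in LSD1n WT at 0 h. Wide members that gained Flag-LSD1n at 1 h lay on chromosome 11 (104091448 to 104098778, 7.33 kb) and chromosome 1 (196445531 to 196452785, 7.25 kb). The region on chromosome 1 had no other LSD1 site in any list, and H4K20me1 covered 85.5% of it in LSD1n KO at 0 h and 89.8% in LSD1n WT at 0 h.

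The 30 members in all 23 lists (0.678%, beside 0.183% of all regions) included regions at the start of chromosome 9 (3014848 to 3032576 and 2999567 to 3002907) and of chromosome 11 (2999595 to 3004173), and one on chromosome 2 (98502210 to 98505422). The region of 17.7 kb on chromosome 9 held 7 and 6 Pol II sites in the Pol II lists labelled LSD1n WT and LSD1n KO at 0 h. These regions were called with every antibody and no control library is named. Whether their calls reflect the targets was therefore not tested. In all, 184 members (4.16%, beside 1.42% of all regions) were called with all 8 targets. Without them 35.1% of the members had Flag-LSD1n at 1 h and 91.9% had H3K4me2 at 1 h.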

How the data were processed

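The deposited files were 27 peak lists in mm9 coordinates, 1 per library, from 27 of 41 samples; the other 14 (GRO-seq and RNA-seq) were not analysed here. Bowtie and HOMER were used, per the submitters' processing notes. The authors made the histone lists by stitching 500 bp peaks into regions, per the file headers, and the factor lists as fixed 200 bp sites at least 4-fold over the local 10 kb, with an FDR of 0.001 and 1 tag per position. No control library is named there. Other values in the lists were not used as measurements: the score column is 1 throughout, so each deposited list was read as positions (called or not called).

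From these, overlaps of at least 1 bp were computed with Python 3.11.15, and exact 95% binomial intervals with scipy; overlap counting was tested on simulated data. A called share depends on depth and on the caller's threshold. Coordinates are 1-based. Members, classes and lists were chosen with earlier results of these data known. Named regions follow a rule (the widest members, those in most lists, without H3K4me2 at 1 h, with Flag-LSD1n at 1 h and not 0 h, without LSD1, and at the edge of the rule); some are not printed. No mm9 genome or annotation was used here, so planned gene lists, marker checks of the cell type and sequence features were not run. Alternatives were a 100 bp overlap, the upper part of each list (regions above the median width, sites above the middle of the list's order), a window of 250 bp each side of the centre, all chromosomes, other lists in the rule, and leaving out regions called with all 8 targets.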

Additional observations from a re-analysis of the deposited data

Results flagged for a closer look

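H3K36me3 in members moved in opposite directions between the KCl times in the 2 genotypes. The called share at 1 h minus that at 0 h was -0.0678 percentage points in LSD1n KO and 2.46 points in LSD1n WT. Each value rests on 1 library a time, the KO difference is within counting error, and the difference between the genotypes was not tested.

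H4K20me1 in members differed between LSD1n KO and LSD1n WT in opposite directions at the 2 times. KO minus WT was -12.7 percentage points at 1 h, against WT replicate 1, and 7.79 points at 0 h. Against WT replicate 2 at 1 h it was 14.7 points, so the direction at 1 h depends on the WT library. The difference between the times was not tested.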

How the results depend on the processing

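No paired analysis was possible because every group but 1 holds a single library and no result comes from a test between groups. Keeping the upper part of the Pol II and H3K4me1 lists in the rule left 1711 members, against 4428; the other 5 settings gave 3691 to 4762. The share with H3K4me2 at 1 h was 69.7% with the upper part of that list, 93.0% when the rule took H3K4me1 of LSD1n KO, and 79.2% in the centre window. Both Pol II lists at 1 h gave 65.4% with their upper part, 93.0% when the rule took the Pol II list labelled LSD1n WT alone, and 49.3% in the centre window. H3K4me1 of LSD1n KO at 0 h gave 60.8% at 100 bp overlap, 41.9% with the upper part and 24.1% in the centre window. The rule with H3K4me1 of LSD1n KO gives no value for it, since that list then chooses the members. Flag-LSD1n at 1 h gave 20.6% with the upper part, 35.1% without regions called with all 8 targets, 35.6% with the Pol II list labelled LSD1n WT alone, and 22.3% in the centre window. H4K20me1 of LSD1n WT at 1 h was 13.2% to 40.6% with either replicate left out.

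Against all regions, members kept their higher share in 20 of 23 lists under every alternative. These alternatives do not hold width fixed. Within the second width part H4K20me1 was lower in members than in all regions, at 14.3% against 19.8% in LSD1n KO at 0 h and 12.7% against 16.1% in LSD1n WT at 0 h. Against regions with Pol II alone, members were higher in 18, 12, 13 and 13 of 23 lists in the 4 width parts, narrow to wide. The narrowest part held only 110 members. The exceptions among the alternatives were H3K4me1 in the centre window, at -5.39 points in LSD1n KO at 1 h, -2.39 in LSD1n WT at 1 h and -6.63 in LSD1n KO at 0 h. Against regions with Pol II alone the direction held in 16 of 23 lists, 14 higher and 2 lower in members. It turned for Flag-LSD1n at 1 h (1.22 points, upper part), Flag-LSD1c at 0 h (1.91, upper part) and Flag-LSD1c at 1 h (-1.68 with H3K4me1 of LSD1n KO in the rule, -3.65 in the centre window). It turned for wild type LSD1 at 0 h (0.212, 100 bp overlap) and at 1 h (-0.307, upper part, -0.42 without regions called with all 8 targets, -0.0938 with H3K4me1 of LSD1n KO, -6.86 in the centre window). For Pol II at 1 h it turned in the list labelled LSD1n WT (-0.122 at 100 bp overlap, -12.3 in the centre window) and in that labelled LSD1n KO (0.207 at 100 bp overlap, 2.49 with the upper part, 0.0144 without regions called with all 8 targets, 0.00491 on all chromosomes, 0.322 with the Pol II list labelled LSD1n WT alone). The cause was not tested. Leaving out regions called with all 8 targets removes H3K36me3 calls by construction and gave 7.21% for LSD1n WT at 1 h and 2.90% for LSD1n KO at 0 h. Calls carry no signal height, so depth and caller thresholds limit every share.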
